A study of Homo sapiens with 6 samples.

Results

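The mitochondrial ribosomal proteins were taken as the protein-coding genes of the count table whose symbol starts with MRPS or MRPL followed by a number. There were 78 of them among 61496 features, 29 with an MRPS and 49 with an MRPL symbol. They were followed in U251, an established human glioma cell line, in 3 libraries of untreated control cells and 3 libraries of cells exposed to sevoflurane (Sev), an inhaled anesthetic gas, for 2 h. The labels list Sev at 1.7, 3.4 and 5.1% without tying a concentration to a library, and the legend of the study's expression plot names 5.1%. Cells of both groups were grown in DMEM with serum and carried no other treatment. Total RNA was depleted of ribosomal RNA and sequenced from both ends after strand-specific adapters were added. The study's statistics section speaks of independent experiments for its quantitative data in general, without naming the sequencing, and the labels do not say that the 3 libraries of a group came from separate cultures. The p-values therefore measure only the spread between these libraries, which may be technical. Each pair of libraries within a group was compared by a chi-square test per gene, with counts scaled by library total alone. Between 50.5 and 68% of 13668 genes differed beyond counting noise, at an unadjusted p under 0.05. Shifts in the composition of a whole library also enter these shares.

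The mitochondrial ribosome translates the few mRNAs that mitochondrial DNA encodes, all of them for subunits of the oxidative phosphorylation complexes. Its rRNAs come from mitochondrial DNA, whereas its proteins are encoded in the nucleus, made in the cytosol and imported. The small subunit binds the mRNA and decodes it, and the large subunit joins the amino acids and lets the new chain leave through a tunnel. Some of the proteins have bacterial homologues, and the others, called mitochondria-specific here, have no direct bacterial counterpart. The latter include MRPS18A and MRPS18B, extra relatives of bacterial S18 at other places in the ribosome.

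The libraries held between 38624292 and 46318311 counts, so that depth limited little among the members, whose counts ran from 111 to 6652 per library. Of 8 genes that mark astrocytic glioma cells, 7 reached 1 FPKM in every library, the exception being CHI3L1. Of 12 genes that mark immune cells, endothelial cells, neurons or oligodendrocytes, 10 stayed under 1 FPKM in every library, the exceptions being SYT1 and CSF1R. The control libraries lay together and apart from the Sev libraries on a first principal component with 69% of the variance, and the second separated Sev 2 from Sev 3. In these bulk samples, fewer cells that express a gene and less mRNA per cell cannot be told apart.

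All 78 members passed the filter on low counts and were tested among 27514 features with edgeR's quasi-likelihood test. A gene is said to have risen or fallen where its Benjamini-Hochberg adjusted p over all features was under 0.05. With Sev, 17 members (21.8%) rose, 5 (6.41%) fell and 56 did not pass the test. Among all tested features 22.1% rose and 21.5% fell, and among the 15189 tested protein-coding genes 25.0% rose and 21.0% fell. The share of members that rose was therefore close to the background, and the share that fell was below both backgrounds.

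The changes of the members were small. The median log2 fold change was 0.21, with quartiles of -0.05 and 0.38, and 53 of 78 members had a positive value. The median was 0.04 over the protein-coding genes and -0.01 over all features. When the counts were scaled by library size alone, all of these moved down, to a median of 0.07 for the members, -0.11 for the protein-coding genes and -0.15 for all features, and 7 members (8.97%) rose and 7 (8.97%) fell, beside 17.0% and 27.3% of all features and 18.2% and 28.1% of protein-coding genes with that scaling. The 7 that rose were MRPL4, MRPL12, MRPL47, MRPL54, MRPS7, MRPS24 and MRPS34, and the 7 that fell were the 5 already called with MRPS18C and MRPL16. The members' median stayed above that of the protein-coding genes, by 0.17 with either scaling, by 0.0839 without control 1, by 0.228 without control 2 and by 0.0695 with limma without a filter. Across all settings tried the members' median lay between 0.06 and 0.28, as the plot of medians shows. No difference between the members and other genes was tested. The study's own threshold asks for a change of more than 1 on the log2 scale and an unadjusted p below 0.05. It was met by 2 members (2.56%), both lower with Sev, beside 23.5% of all features and 16.7% of the protein-coding genes.

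**Figure D1:**
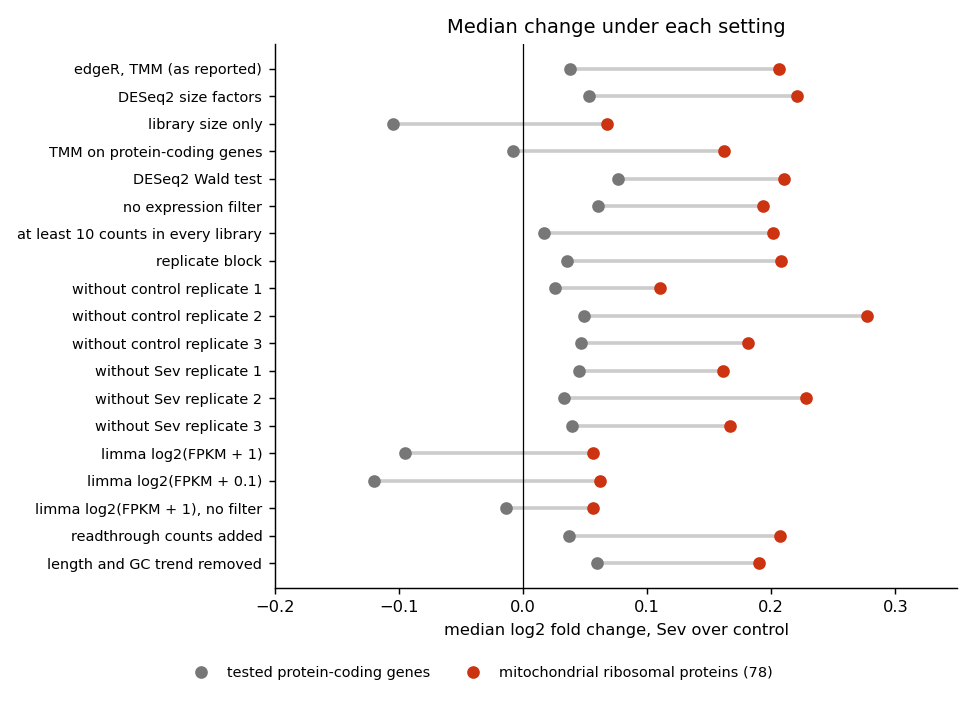
Median log2 fold change of the 78 members (red) and of the tested protein-coding genes (grey) under each setting of the analysis. The members' median was positive under every setting shown, from 0.06 with limma on log2(FPKM + 1) to 0.28 without control 2, and lay to the right of the grey point in each row of the plot.

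The control and Sev libraries did not overlap in 34 members (43.6%), beside 56.5% of all features and 57.8% of the protein-coding genes. The counts of calls changed when 1 library was left out, and the range over all such fits is given at the end. The number of members that rose was 9 without control 1, 9 without control 3 and 8 without Sev 1. The number that fell was 3 without control 1, 2 without control 3 and 2 without Sev 1. A fit with fewer libraries has less power for every gene. Whether the loss of calls was particular to the members was not tested. The study's threshold was met by 0 members without control 1 or without Sev 2, and by 1 without control 2 or without Sev 1. Summed over the 78 members, the level was 1676, 1915 and 1774 CPM (read counts scaled to the TMM-normalised library size) in control and 2109, 1916 and 1995 CPM in Sev. On this scale Sev 1 and Sev 3 lay above the control libraries, and Sev 2, whose sum holds the high MRPS6 value of 177 CPM, lay beside control 2. As a share of all counts, with no TMM scaling, the members took 0.18, 0.196 and 0.186% in control and 0.2, 0.176 and 0.197% in Sev, so that Sev 2 was the lowest library.

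**Figure D2:**
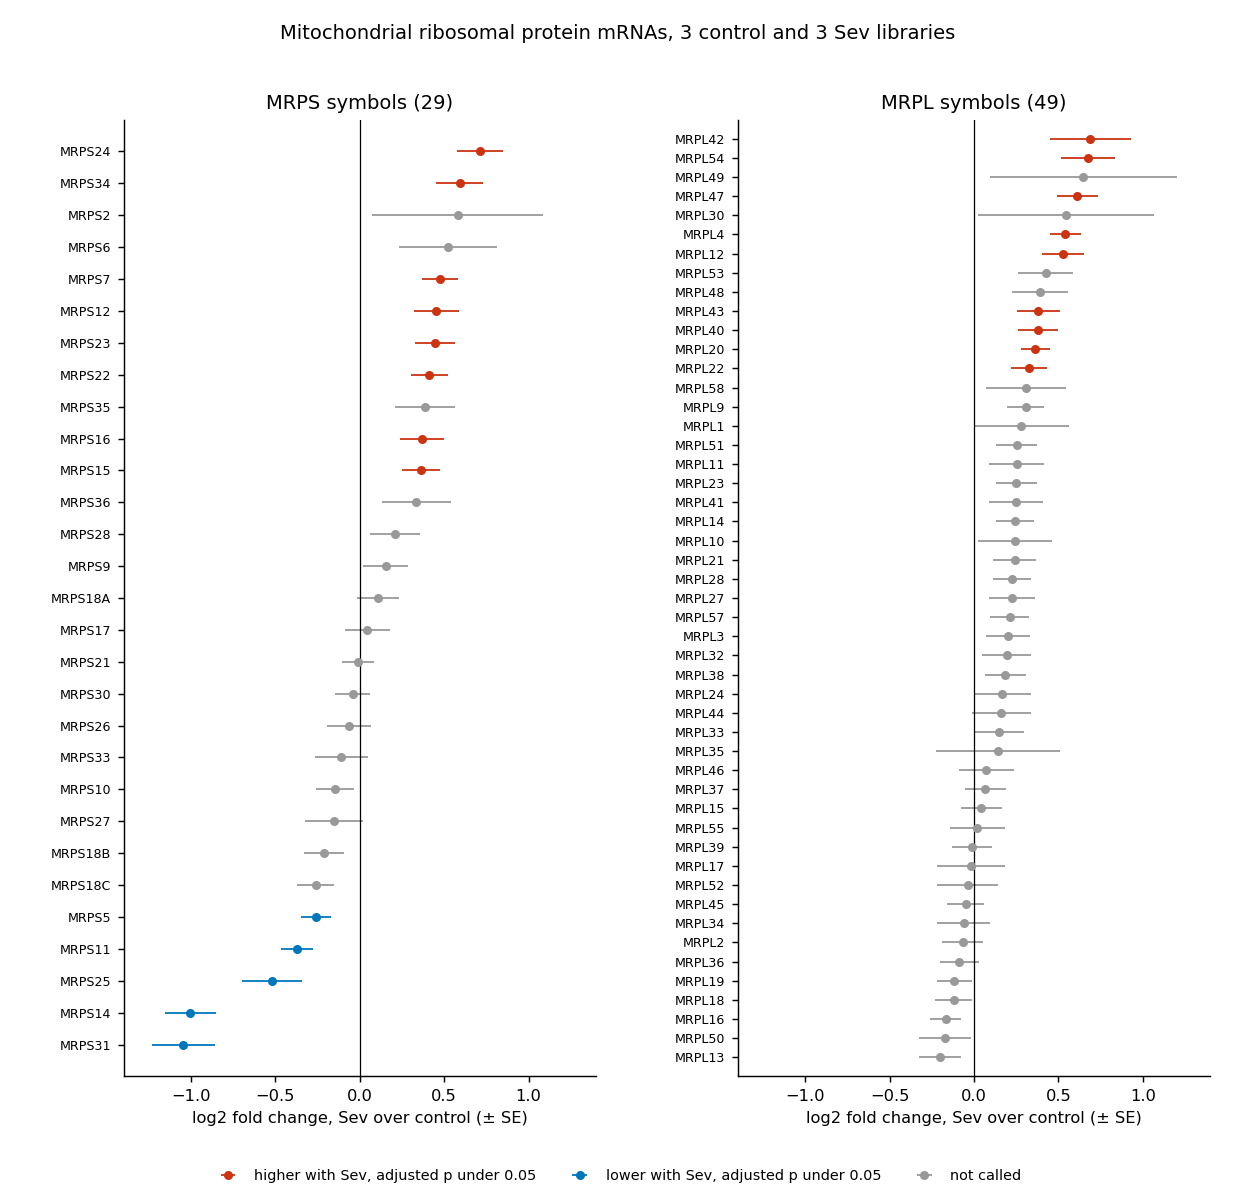
Log2 fold change of each of the 78 members, Sev over control, with its standard error, for 29 MRPS symbols on the left and 49 MRPL symbols on the right (3 libraries per group). Red points mark the 17 members that rose, blue points the 5 that fell and grey points the 56 that were not called. All 5 blue points have MRPS symbols, with MRPS14 and MRPS31 near -1.

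The 5 members that fell all had MRPS symbols. Among MRPS symbols, 8 of 29 rose (27.6%) and 5 fell (17.2%), near the 22.1% and 21.5% of all features, with a median log2 fold change of 0.11. With scaling by library size alone the median turned to -0.0271, and 3 rose (10.3%) and 6 fell (20.7%), beside 17.0% and 27.3% of all features. Among MRPL symbols, 9 of 49 rose (18.4%) and 0 fell, with a median of 0.22, which was 0.0827 with library size alone, where 4 rose. For the count of 0, DESeq2's Wald test also gave 0, 1 MRPL symbol fell with scaling by library size alone, and an unadjusted p under 0.05 was met by 0 MRPL symbols with a negative value. The difference between the 2 sets of symbols was not tested. The symbol does not always name the subunit, since MRPS18A and MRPS30 sit in the large subunit and MRPS36 is now counted as a protein of the alpha-ketoglutarate dehydrogenase complex.

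MRPS14, the counterpart of bacterial S14 in the head of the small subunit, had the smallest p of all members. Its level was 14.1, 14.0 and 11.9 CPM in control and 7.73, 6.07 and 6.18 CPM in Sev. Every Sev library lay well below every control library. The log2 fold change was -1.003 (SE 0.149, adjusted p = 0.00156 by edgeR), a level 0.499 times that of control. The call held in each of the 6 fits without 1 library, with an adjusted p of at most 0.00752.

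MRPS31, a small-subunit protein without a bacterial homologue, fell by a like amount. It measured 8.23, 6.74 and 7.44 CPM in control and 3.37, 3.01 and 4.47 CPM in Sev. The groups did not overlap, and the log2 fold change was -1.05 (SE 0.188, adjusted p = 0.00351 by edgeR). The call held without each library in turn, with an adjusted p of at most 0.018.

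MRPS31 has partial copies elsewhere in the genome that can share its reads. The 4 annotated pseudogenes took 46.5% of the counts of MRPS31 and its copies together, a larger share than for any other member. Their summed level was 5.46, 5.07 and 4.57 CPM in control and 4.19, 3.97 and 6.34 CPM in Sev, so the groups overlapped, and none of the 3 copies that could be tested was called by edgeR or had an unadjusted p under 0.05. With the copies added, MRPS31 measured 12.5 ± 1.03 CPM (SD, n = 3) in control and 8.45 ± 2.06 CPM in Sev, a ratio of 0.676. How the counting shared reads between these loci is not stated, so the change of MRPS31 itself is uncertain in size.

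The promoters of the 2 members that fell and the 2 that rose with the smallest p are shown, since the members' promoters were searched for shared motifs. The sequences are from RefSeq (GRCh38.p14), from 250 bases before the start of transcription to 50 bases after it, 5′ to 3′ on the strand of the gene. Capitals mark letters that match a searched motif on either strand, which were the ETS core CCGGAAG, the SP1 box GGGCGG, the CCAAT box, the YY1 motif AAGATGGCG, the NRF1 letters GCATGCGC and the C/EBP-ATF letters TGATGCAA. MRPS14 lies on the minus strand at chr1:175023376-175023675, MRPS31 on the minus strand at chr13:40771141-40771440, MRPL4 on the plus strand at chr19:10251701-10252000 (1 of its 2 listed promoters) and MRPS24 on the minus strand at chr7:43869468-43869767.
MRPS14: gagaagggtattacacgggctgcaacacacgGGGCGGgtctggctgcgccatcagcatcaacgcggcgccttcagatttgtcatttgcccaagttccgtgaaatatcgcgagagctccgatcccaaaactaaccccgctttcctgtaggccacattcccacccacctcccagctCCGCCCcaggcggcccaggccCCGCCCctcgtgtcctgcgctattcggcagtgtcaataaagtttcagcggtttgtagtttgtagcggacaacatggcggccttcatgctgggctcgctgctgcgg
MRPS31: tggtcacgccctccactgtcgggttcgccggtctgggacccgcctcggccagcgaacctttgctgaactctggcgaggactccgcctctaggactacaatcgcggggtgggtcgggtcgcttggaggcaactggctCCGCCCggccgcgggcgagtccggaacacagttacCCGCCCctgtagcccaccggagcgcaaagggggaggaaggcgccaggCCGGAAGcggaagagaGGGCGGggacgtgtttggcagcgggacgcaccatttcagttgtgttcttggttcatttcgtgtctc
MRPL4: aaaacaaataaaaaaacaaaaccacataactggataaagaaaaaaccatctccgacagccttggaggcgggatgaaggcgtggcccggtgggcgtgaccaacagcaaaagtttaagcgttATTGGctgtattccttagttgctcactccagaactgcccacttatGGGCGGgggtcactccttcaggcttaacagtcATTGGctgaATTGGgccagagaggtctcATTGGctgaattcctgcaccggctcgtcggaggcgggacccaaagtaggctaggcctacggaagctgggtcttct
MRPS24: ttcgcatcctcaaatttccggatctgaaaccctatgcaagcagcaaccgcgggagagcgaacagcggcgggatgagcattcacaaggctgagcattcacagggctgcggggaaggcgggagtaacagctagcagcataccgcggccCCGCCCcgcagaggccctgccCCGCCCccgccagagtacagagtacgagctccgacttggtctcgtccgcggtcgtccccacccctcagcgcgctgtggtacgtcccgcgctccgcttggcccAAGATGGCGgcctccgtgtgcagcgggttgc

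The MRPS14 window held 3 SP1 boxes, the MRPS31 window 3 SP1 boxes and an ETS core, the MRPL4 window 4 CCAAT boxes and an SP1 box, and the MRPS24 window 2 SP1 boxes and a YY1 motif just after the start. RefSeq promoters were matched to 69 of the 78 members. The ETS core was present in 30 of them (43.5%), against 12.2% of 27305 genes with a promoter and 16.5% of 15842 protein-coding genes. The YY1 motif was present in 13 (18.8%), against 2.14% and 3.21%, and the NRF1 letters in 6 (8.7%), against 3.68% and 4.89%. The SP1 box was found in 42 members (60.9%), against 48.3% and 64.3%, and the CCAAT box in 23 (33.3%), against 39.7% and 42.1%. The C/EBP-ATF letters were found in 0 members, against 1.08% and 0.903%. Of the 17 members that rose, 10 held the ETS core, 9 the SP1 box, 6 the CCAAT box, 3 the YY1 motif and 1 the NRF1 letters. Of the 5 that fell, 1 held the ETS core, 3 the SP1 box and 0 the CCAAT box, the YY1 motif or the NRF1 letters. No test was made on the motifs, which are matches of letters and not shown binding sites.

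MRPS11, the counterpart of bacterial S11 on the platform of the small subunit, measured 29.2, 32.8 and 31.9 CPM in control and 23.2, 23.9 and 25.6 CPM in Sev. The groups stood apart, and it fell by 0.37 on the log2 scale (SE 0.0947, adjusted p = 0.0153 by edgeR). The call was lost without control 3 or Sev 1, where the adjusted p reached 0.0676. MRPS25, a mitochondria-specific protein of the small subunit, ranged from 34.9 to 49.4 CPM in control and from 23.5 to 34.2 CPM in Sev. It fell by 0.52 (SE 0.177, adjusted p = 0.0457), a call lost without control 1, control 3, Sev 1 or Sev 2, with an adjusted p of up to 0.143. The gap between its groups was narrow, at 34.2 against 34.9 CPM. MRPS25 shares 1197 exon bases on the opposite strand with NR2C2, whose mean was 213.9 CPM in control and 194.4 CPM in Sev. NR2C2 was not called, at a log2 fold change of -0.14 (SE 0.069, adjusted p = 0.143 by edgeR). The part of NR2C2 reads in the value of MRPS25 was not tested.

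MRPS5, the counterpart of bacterial S5 near the entry of the mRNA channel, measured 37.0, 38.9 and 39.9 CPM in control and 30.4, 34.2 and 32.1 CPM in Sev. It fell by 0.26 (SE 0.0885, adjusted p = 0.0447 by edgeR), the smallest of the 5 decreases. The call was lost in 5 of the 6 fits without 1 library, all but that without Sev 2, with an adjusted p of up to 0.156. MRPS5 shares 550 exon bases on the same strand with ZNF514, a zinc finger gene that fell by 1.75 (SE 0.22, adjusted p = 0.000765). The part of ZNF514 reads in the value of MRPS5 was not tested.

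Of the small-subunit proteins with bacterial homologues, 5 of 16 rose (31.2%) and 3 fell (18.8%), beside 22.1% and 21.5% of all features, with a median log2 fold change of 0.18. On scaling by library size alone, 2 rose (12.5%) and 4 fell (25%), beside 17.0% and 27.3%, and the median was 0.0436. MRPS24, the counterpart of bacterial S3, measured 20.0, 19.7 and 14.5 CPM in control and 28.6, 30.0 and 30.4 CPM in Sev. On the counts as deposited it was the member with the largest increase, at a log2 fold change of 0.71 (SE 0.137, adjusted p = 0.00465 by edgeR), and the call held without each library. A readthrough gene that joins URGCP and MRPS24 reached 6.67 CPM in control 1 and at most 0.227 CPM in the other libraries. With these counts added, the log2 fold change of MRPS24 was 0.54, below those of MRPL42 and MRPL54, and was no longer called (adjusted p = 0.0538).

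MRPS7, which organises the head of the small subunit, measured 28.0, 34.8 and 32.5 CPM in control and 42.8, 43.1 and 46.6 CPM in Sev. The log2 fold change was 0.48 (SE 0.105, adjusted p = 0.00841 by edgeR), and the call held without each library. Its neighbour on the opposite strand, GGA3, which shares 213 exon bases with it, fell by 0.55 (SE 0.125, adjusted p = 0.00981). MIF4GD, which shares 146 exon bases with MRPS7 on the opposite strand, was at 0.03 (SE 0.116, adjusted p = 0.864).

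MRPS12, a protein of the decoding centre, measured 16.1, 20.7 and 21.9 CPM in control and 28.5, 25.9 and 26.0 CPM in Sev, with a log2 fold change of 0.45 (SE 0.133, adjusted p = 0.0263 by edgeR). The groups did not overlap, but the call was lost without control 1, Sev 1 or Sev 3, with an adjusted p of up to 0.0916. MRPS15 and MRPS16, the counterparts of bacterial S15 and S16, rose by 0.36 and 0.37 on the log2 scale, with adjusted p-values of 0.0351 and 0.0497. These were weak calls. MRPS15 kept its call only without control 2, with an adjusted p of up to 0.12 in the other fits, and MRPS16 lost it in each of the 6 fits without 1 library, with an adjusted p between 0.0546 and 0.138.

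Of the 10 mitochondria-specific proteins of the small subunit, 3 rose (30%) and 2 fell (20%), beside 22.1% and 21.5% of all features, and the median log2 fold change was -0.09. Scaled by library size alone, the median was -0.225, and 1 rose (10%) and 2 fell (20%), beside 17.0% and 27.3% of all features. With each library's trend on length and GC content removed, the median was -0.0361. In that fit 4 rose (40%) and 1 fell (10%), beside 22.9% and 21.4%. MRPS34 measured 19.7, 24.6 and 24.8 CPM in control and 40.0, 33.9 and 30.1 CPM in Sev. Its log2 fold change was 0.59 (SE 0.14, adjusted p = 0.0113 by edgeR), and the call held without each library. MRPS22 was even across the control libraries, at 14.4, 14.4 and 14.3 CPM, and measured 21.1, 18.3 and 18.0 CPM in Sev, with a log2 fold change of 0.41 (SE 0.109, adjusted p = 0.0175). MRPS23 measured 33.9, 38.4 and 35.8 CPM in control and 51.5, 41.8 and 53.9 CPM in Sev, with a log2 fold change of 0.45 (SE 0.116, adjusted p = 0.0165). The groups did not overlap for any of these members. The call of MRPS22 was lost without control 3 or Sev 1 (adjusted p up to 0.0716), and that of MRPS23 without control 1, control 3, Sev 1 or Sev 3 (adjusted p up to 0.0649).

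The MRPS18 paralogs, which share an ancestor in bacterial S18 but occupy different places in the ribosome, did not pass the test. MRPS18C, in the small subunit at the place of S18, measured 14.5, 15.8 and 14.3 CPM in control and 12.4, 11.8 and 13.1 CPM in Sev, with a log2 fold change of -0.26 (SE 0.11, adjusted p = 0.0917 by edgeR). The groups stood apart, and with scaling by library size alone it was called lower, at -0.40 with an adjusted p of 0.0283. MRPS18C shares 1956 exon bases on the opposite strand with ABRAXAS1, which was at -0.59 (SE 0.243, adjusted p = 0.0838 by edgeR). The part of ABRAXAS1 reads in the value of MRPS18C was not tested. MRPS18B, elsewhere in the small subunit, had a log2 fold change of -0.21 (adjusted p = 0.181), and MRPS18A, in the large subunit, one of 0.11 (adjusted p = 0.503) that turned to -0.03 with scaling by library size. MRPS30, also in the large subunit, had -0.04 (adjusted p = 0.772), and MRPS36 had 0.34 (adjusted p = 0.213).

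Of the 30 large-subunit proteins with bacterial homologues, 5 rose (16.7%, beside 22.1% of all features) and 0 fell (beside 21.5%) by edgeR or by DESeq2 (0 with an unadjusted p under 0.05 and a negative value), with a median log2 fold change of 0.21. With scaling by library size alone 3 rose (10%, beside 17.0% of all features), only MRPL16 fell (3.33%, beside 27.3%) and the median was 0.073. MRPL4, a protein that lines the exit tunnel, measured 26.7, 29.9 and 30.2 CPM in control and 40.3, 42.1 and 43.9 CPM in Sev. The groups were tight and well apart, and the log2 fold change of 0.54 (SE 0.0914, adjusted p = 0.00267 by edgeR) had the smallest p of the members that rose. MRPL47, the counterpart of bacterial L29 beside the tunnel exit, measured 19.4, 24.3 and 20.7 CPM in control and 34.7, 29.2 and 34.5 CPM in Sev, with a log2 fold change of 0.61 (SE 0.122, adjusted p = 0.00544). MRPL22, another protein of the exit tunnel, rose by 0.33 (adjusted p = 0.0388), a call that was kept only without Sev 2. Without the other libraries its adjusted p was up to 0.128.

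MRPL12, the stalk protein that contacts translation factors, measured 27.7, 35.9 and 35.1 CPM in control and 50.5, 43.1 and 48.7 CPM in Sev. The log2 fold change was 0.53 (SE 0.124, adjusted p = 0.0108 by edgeR). The other proteins at the base of the stalk, MRPL10 and MRPL11, had log2 fold changes of 0.24 (adjusted p = 0.401) and 0.25 (adjusted p = 0.24) and were not called. MRPL20, which binds the large rRNA early in assembly, measured 30.0, 32.5 and 31.2 CPM in control and 41.7, 38.7 and 40.2 CPM in Sev. It rose by 0.36 (SE 0.0844, adjusted p = 0.0104), and MRPL20-AS1, an RNA from the opposite strand that shares 139 exon bases with it, rose by 0.80 (SE 0.186, adjusted p = 0.0105). RN7SL657P, which shares 293 bases with MRPL20 on the same strand, rose by 0.57 (adjusted p = 0.0331). MRPL3, which reaches towards the catalytic centre, was at 0.20 (SE 0.132, adjusted p = 0.249). The calls of MRPL4, MRPL47, MRPL12 and MRPL20 held without each library, with an adjusted p of up to 0.0499 for MRPL20. With scaling by library size alone, MRPL20 was at 0.22 and no longer called (adjusted p = 0.0759), and with the trend on length and GC content removed, MRPL12 was at 0.34 and no longer called (adjusted p = 0.0816). Both also lost the call with limma without a filter.

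Of the 21 mitochondria-specific proteins of the large subunit, 4 rose (19%, beside 22.1% of all features) and 0 fell (beside 21.5%) by edgeR or by DESeq2 (0 with an unadjusted p under 0.05 and a negative value), with a median log2 fold change of 0.21. With scaling by library size alone 1 rose (4.76%, beside 17.0% of all features), 0 fell (beside 27.3%) and the median was 0.0715. With TMM on protein-coding genes 1 rose (4.76%, beside 20.4% of all features) and 0 fell (beside 23.2%). MRPL54 measured 8.27, 12.2 and 11.5 CPM in control and 17.3, 17.1 and 16.8 CPM in Sev, with a log2 fold change of 0.67 (SE 0.159, adjusted p = 0.0111 by edgeR). Its Sev libraries differed little among themselves, and the call held without each library. MRPL42 measured 16.0, 17.6 and 14.3 CPM in control and 36.9, 20.0 and 20.3 CPM in Sev, with a log2 fold change of 0.69 (SE 0.241, adjusted p = 0.0495). Most of that value came from Sev 1, and the call was lost without control 1, control 2, control 3 or Sev 1, with an adjusted p of up to 0.142.

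MRPL40 and MRPL43 each rose by 0.38 on the log2 scale, with adjusted p-values of 0.0349 and 0.0391 by edgeR. Each kept its call only without Sev 2, with an adjusted p of up to 0.0974 for MRPL40 and 0.136 for MRPL43 in the other fits. MRPL43 shares 1170 exon bases with SEMA4G on the opposite strand, a gene that fell by 0.99 (adjusted p = 0.0154) from 3.75 to 1.89 CPM, and 149 with TWNK, the mitochondrial DNA helicase, which rose by 0.64 (adjusted p = 0.0209) from 13.6 to 21.2 CPM. The part of their reads in the value of MRPL43 was not tested. MRPL44, which has the fold of an RNase III, was at 0.16 (adjusted p = 0.49). MRPL58, a peptidyl-tRNA hydrolase that became part of the large subunit, measured 11.0, 13.7 and 13.3 CPM in control and 18.8, 9.95 and 18.3 CPM in Sev, with a log2 fold change of 0.31 (SE 0.238, adjusted p = 0.327). Sev 2 lay below all control libraries, and without it the value was 0.55 and passed the test.

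**Figure D3:**
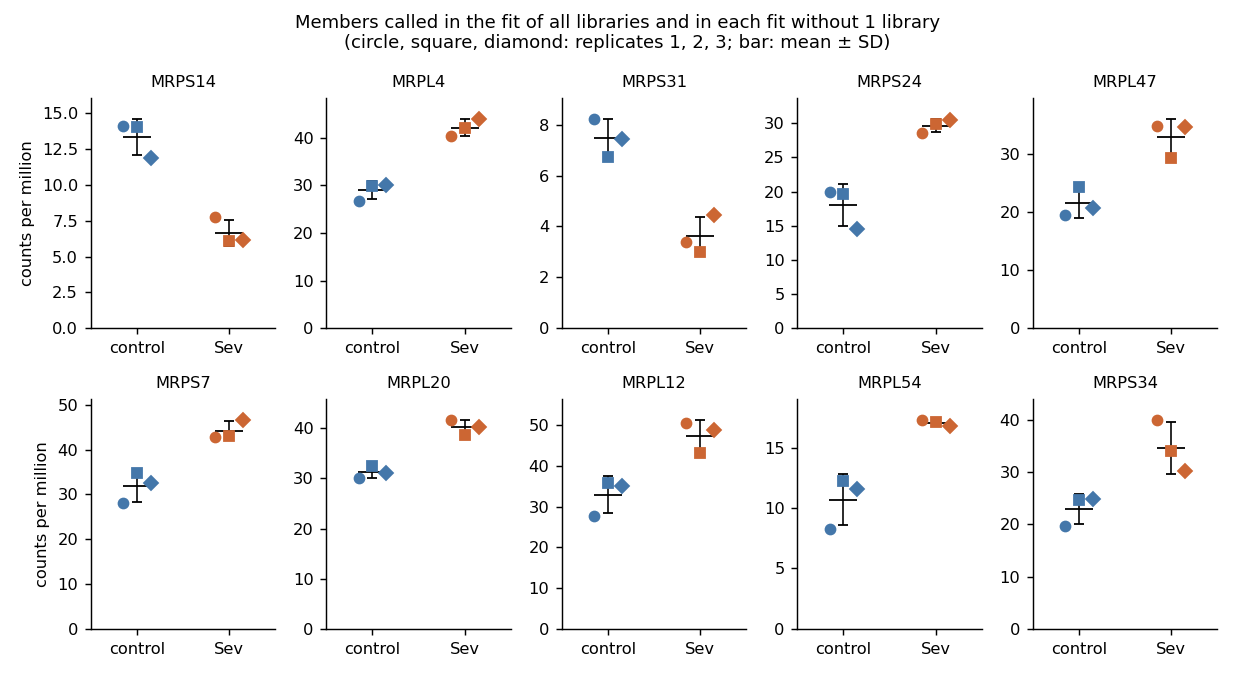
CPM of the 10 members whose call held in the fit of all libraries and in each of the 6 fits without 1 library, with a point for each library and bars for the mean and SD of 3 libraries. MRPS14 and MRPS31 are lower with Sev and the other 8 are higher. In each panel the Sev points lie clear of the control points.

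Levels of different members were compared as FPKM, which scales by transcript length. In control cells the highest were MRPS21, at 29.7 ± 1.77 FPKM (SD, n = 3), MRPL37 at 29.6 ± 4.14 FPKM and MRPL41 at 29.1 ± 5.09 FPKM, followed by MRPL12 at 27.8 ± 3.34 FPKM, and these 4 did not differ beyond their spread. The lowest were MRPL42 at 0.825 ± 0.0804 FPKM, MRPL46 at 1.07 ± 0.151 FPKM and MRPL30 at 1.42 ± 0.25 FPKM, the last of which did not differ from MRPS33 at 1.42 ± 0.196 FPKM beyond their spread. Both extremes differ by more than the spread between libraries, although exon overlaps and annotated transcript length enter these values. Of these 4, MRPL12 rose and the others were not called, with log2 fold changes of -0.01 for MRPS21 (adjusted p = 0.947 by edgeR), 0.07 for MRPL37 (adjusted p = 0.686) and 0.25 for MRPL41 (adjusted p = 0.242). Of the 3 lowest, MRPL42 rose, and MRPL46 had 0.07 (adjusted p = 0.744).

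In 6 members the highest library of a group exceeded the lowest by more than 2-fold, in control, in Sev or in both. They were MRPL1, MRPL30, MRPL35, MRPL49, MRPS2 and MRPS6, chosen after their values were seen, and none was called by edgeR or had an unadjusted p under 0.05. The median of that ratio over the members was 1.3. MRPL49 measured 9.17, 37.2 and 18.8 CPM in control and 46.1, 13.8 and 42.1 CPM in Sev, so that each group held both high and low libraries. MRPS2, the counterpart of bacterial S2, measured 10.1, 17.5 and 8.90 CPM in control and 26.4, 22.4 and 5.76 CPM in Sev. The lowest of all was a Sev library, and without Sev 3 the log2 fold change went from 0.58 to 1.01 and was called. MRPL35 measured 9.55, 14.7 and 25.5 CPM in control and 20.4, 11.8 and 22.7 CPM in Sev, with no separation between the groups.

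MRPL30 measured 8.96, 8.41 and 6.47 CPM in control and 23.3, 5.54 and 6.03 CPM in Sev. Only Sev 1 was high. The log2 fold change of 0.55 (SE 0.521, adjusted p = 0.426 by edgeR) turned to -0.46 without Sev 1. MRPL1 had a log2 fold change of 0.28 (adjusted p = 0.448) that turned to -0.03 without Sev 3.

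MRPS6, the counterpart of bacterial S6, measured 80.7, 78.4 and 83.3 CPM in control and 103, 177 and 68.6 CPM in Sev. The control libraries were even, and the Sev libraries lay both above and below them. The log2 fold change was 0.52 (SE 0.292, adjusted p = 0.183 by edgeR), and 0.79 with a call without Sev 3. MRPS6 shares 273 exon bases on the same strand with SLC5A3, an inositol transporter, which measured 423, 411 and 391 CPM in control and 359, 867 and 167 CPM in Sev. Both genes were highest in Sev 2 and lowest in Sev 3. The ratio of SLC5A3 to MRPS6 was between 4.7 and 5.25 in the control libraries and between 2.43 and 4.89 in the Sev libraries. The part of SLC5A3 reads in the value of MRPS6 was not tested.

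**Figure D4:**
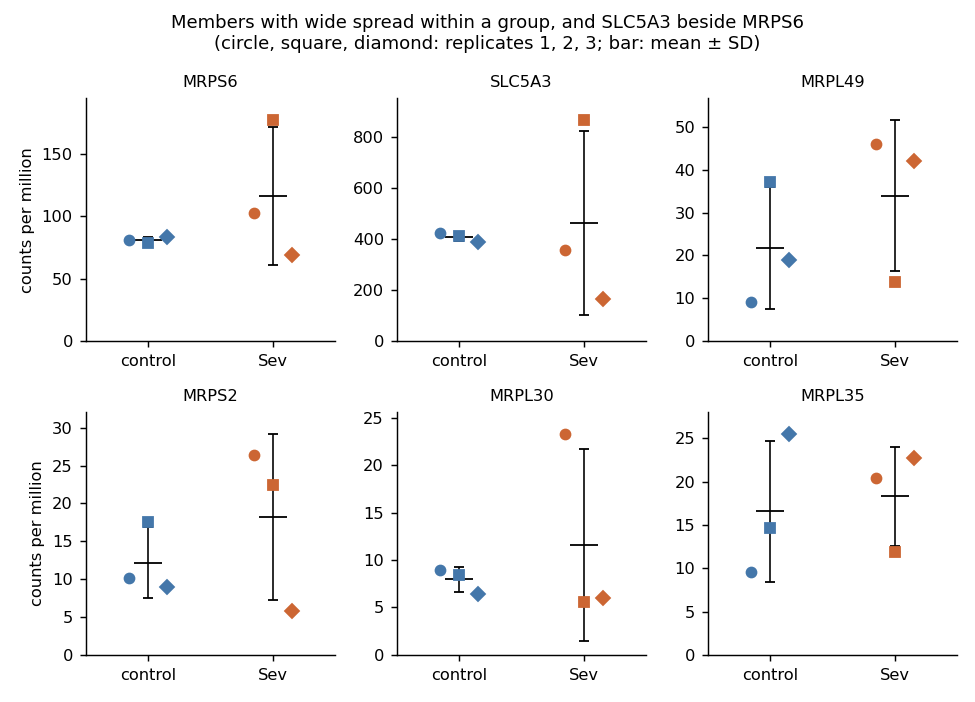
CPM in each library of 5 members with a wide spread within a group and of SLC5A3, the gene that overlaps MRPS6, with bars for the mean and SD of 3 libraries. MRPS6 and SLC5A3 are both highest in Sev 2 and lowest in Sev 3. In MRPL30 the Sev value of 23.3 CPM in library 1 stands alone.

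Overlap with other genes was common among the members. Exon bases were shared with another annotated gene by 41 of 78, on the same strand in 16 and on the opposite strand in 29. The libraries were strand-specific, but whether the counting used strand is not stated, so reads of such pairs may not be told apart. MRPS14 shares 351 exon bases on the opposite strand with CACYBP, which rose by 0.66 (SE 0.156, adjusted p = 0.0111 by edgeR) while MRPS14 fell. Adding the counts of 8 readthrough loci to the 7 members they run through left 16 members higher and 5 lower, the call of MRPS24 being lost. The members had 79 annotated pseudogene copies of 36 parents, which took 1.32% of the counts of members and copies together. A share above 10% was found for MRPS31, MRPL53 (14.4%), MRPL37 (10.6%) and MRPL35 (10.3%).

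The log2 fold change was set against the length, GC content and level of a member. Over the 78 members, Spearman's rho was -0.094 with exon length, 0.253 with GC content and 0.028 with mean CPM. Over the protein-coding genes the values were -0.111, 0.152 and 0.06. These are descriptions across genes of the same libraries, and genes are not independent replicates. With each library's trend on length and GC content removed, the median of the members was 0.19, and 13 rose (16.7%) and 3 fell (3.85%), beside 22.9% and 21.4% of all features in that fit.

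Genes that work with these proteins were taken from lists written with general knowledge. Of 5 ribosome proteins without an MRP symbol, 1 rose (20%) and 1 fell (20%), near the 22.1% and 21.5% of all tested features. AURKAIP1 rose, from 24.0 ± 2.27 CPM (SD, n = 3) to 35.2 ± 1.7 CPM, with a log2 fold change of 0.55 (SE 0.103, adjusted p = 0.00413 by edgeR). CHCHD1 fell by 0.65 (SE 0.151, adjusted p = 0.0105), and DAP3, PTCD3 and GADD45GIP1 were not called. GADD45GIP1, of the large subunit, had a log2 fold change of 0.51 (SE 0.195, adjusted p = 0.0665), and was called higher by DESeq2's Wald test (adjusted p = 0.0492).

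Of 31 genes for assembly of the ribosome and maturation of its rRNA, 13 rose (41.9%) and 6 fell (19.4%), beside 22.1% and 21.5% of all tested features. Scaled by library size alone, 7 rose (22.6%) and 8 fell (25.8%), beside 17.0% and 27.3%. No difference between these shares was tested. DDX28, an RNA helicase of large-subunit assembly, measured 11.5, 14.4 and 13.7 CPM in control and 28.3, 27.9 and 29.5 CPM in Sev, with a log2 fold change of 1.11 (SE 0.115, adjusted p = 0.000366 by edgeR). TRUB2, a pseudouridine synthase, rose by 0.70 (SE 0.0825), and DHX30, another helicase, by 0.59 (SE 0.0732). In the other direction, METTL15, a methyltransferase of the small rRNA, measured 15.7, 18.1 and 21.2 CPM in control and 5.10, 5.80 and 5.86 CPM in Sev, with a log2 fold change of -1.71 (SE 0.151, adjusted p = 0.000201). TFB1M, which dimethylates the same rRNA, fell by 1.03 (SE 0.164, adjusted p = 0.00205), and MTERF3, of the mitochondrial termination factor family, fell by 0.9985 (SE 0.214, adjusted p = 0.0074).

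Of 20 translation factors and regulators, 5 rose (25%) and 6 fell (30%), beside 22.1% and 21.5% of all tested features. Scaled by library size alone, 2 rose (10%) and 7 fell (35%), beside 17.0% and 27.3%. TSFM, an elongation factor, rose by 0.77 (SE 0.179, adjusted p = 0.0101 by edgeR), GATB by 0.49 (SE 0.103) and MTRF1L, a release factor, by 0.37 (SE 0.089). HEMK1, which methylates release factors, fell by 1.16 (SE 0.151, adjusted p = 0.00088), MRRF, the recycling factor, by 0.62 (SE 0.0917), and GATC by 0.74 (SE 0.112). GATB and GATC, subunits of the same amidotransferase, thus moved in opposite directions. The mitochondrial rRNAs MT-RNR1 and MT-RNR2 had between 0 and 2 counts per library and were not tested.

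The proteins of the cytosolic ribosome and the nuclear-encoded subunits of oxidative phosphorylation were set beside the members. Of 83 tested genes for cytosolic ribosomal proteins, 64 rose (77.1%, beside 22.1% of all features) and 0 fell (beside 21.5%), with a median log2 fold change of 0.36. DESeq2's Wald test gave 61 and 0, none had a negative value with an unadjusted p under 0.05, and with scaling by library size 30 rose (36.1%) and 0 fell by edgeR, with a median of 0.22. Of 84 tested oxidative phosphorylation genes, 26 rose (31%) and 3 fell (3.57%), beside the same shares of all features, with a median of 0.23. With scaling by library size 6 rose (7.14%) and 9 fell (10.7%), with a median of 0.0911. With that scaling 17.0% of all features rose and 27.3% fell. The mitochondrial ribosomal protein median of 0.21 lay nearest to that of the oxidative phosphorylation genes. The differences between these groups were not tested.

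**Figure D5:**
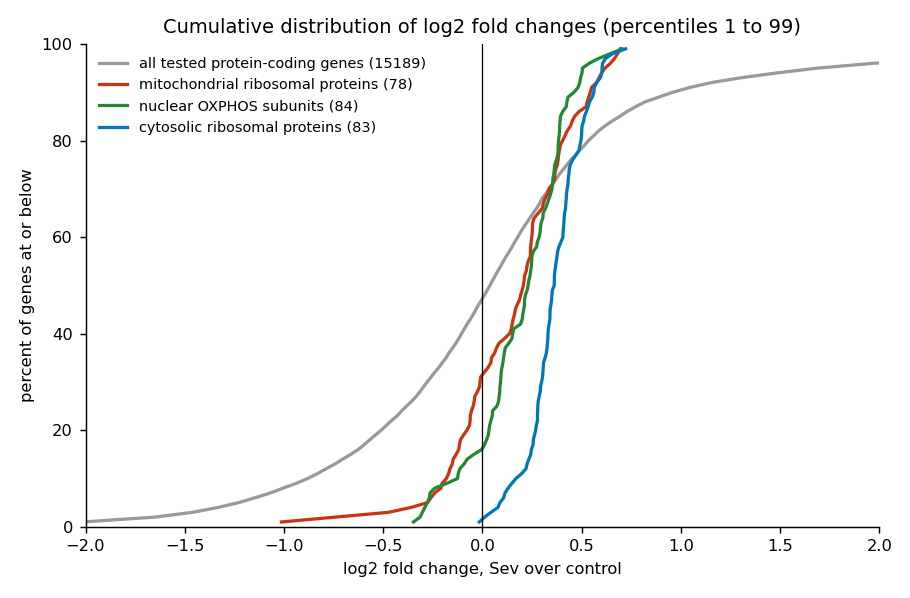
Cumulative distribution of log2 fold changes, Sev over control, for 78 mitochondrial ribosomal proteins, 84 oxidative phosphorylation subunits, 83 cytosolic ribosomal proteins and 15189 protein-coding genes, drawn from percentiles 1 to 99. The curve of the members is steeper than that of the protein-coding genes, and its median lies to the right of 0, at 0.21. The lower tail near -1 is MRPS14 and MRPS31.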

How the data were processed

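The authors deposited whole-number counts per gene for 6 U251 libraries, without normalization, and FPKM values of the same features. Their processing notes name bcl2fastq 2.19, featureCounts and hg18, with no role given, and the counting of strand and of reads shared between genes is not given in the sources used here. Of 61496 features, 60564 carry Ensembl identifiers, which were joined to symbols and to GENCODE 29 types, strands and exons. The counts were filtered with filterByExpr, normalized by TMM and tested with the quasi-likelihood test of edgeR 4.0.16 in R 4.3.3, with the group as the only term. Adjusted p-values are by Benjamini-Hochberg over 27514 features. Standard errors are the absolute log2 fold change over the square root of F. CPM are TMM-normalized. Depth was between 38624292 and 46318311 counts.

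The alternatives used DESeq2 1.42.0, limma 3.58.1 on log2(FPKM + 1) and log2(FPKM + 0.1) for features that reached 0.5 FPKM in 3 libraries or more, other scalings and filters, a replicate block and each library left out. Adding readthrough counts and removing trends on length and GC content were chosen after seeing the data. The code was tested on simulated data. The members, the lists and the named genes were chosen with earlier results of these data known. Named were members past the study's threshold, up to 10 called members of smallest p in each direction, the 3 highest and 3 lowest by control FPKM, 13 members with known roles, and up to 3 called genes in each direction of each neighbouring list. MRPL22, MRPL40, MRPL43, MRPS15, MRPS16, MRPL1, MRPL35, MRPL49, MRPS2 and MRPS6 were named after their values were seen.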

Additional observations from a re-analysis of the deposited data

How the results depend on the processing

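The calls rest on 3 libraries a group, and changes of the size seen in most members are near the spread between libraries. Among 42 named members and 18 other settings, the 22 called members kept direction throughout, with 273 of 396 values on the same side of the limit and 123 no longer past it, while 8 values of uncalled members passed it. The number of members that rose, 17, was 7 with library size alone, 10 without an expression filter, 11 with the replicate number as a block, 8, 8 and 6 with limma on log2(FPKM + 1), log2(FPKM + 0.1) and log2(FPKM + 1) without a filter, and 8 to 17 with 1 library left out. The number that fell, 5, was 3 with DESeq2 size factors, without a filter or with the length and GC trend removed, 8 with limma on log2(FPKM + 1), and 2 to 4 with 1 library left out. The study's threshold was met by 1 member with DESeq2 size factors or the Wald test, by 0 with limma on log2(FPKM + 1) with or without a filter or with the length and GC trend removed, and by 0 to 2 with 1 library left out. The median of 0.21 was 0.0674 with library size alone, 0.056, 0.062 and 0.056 in the limma fits, and 0.11 to 0.277 with 1 library left out. Of the MRPS symbols, 8 rose, and 3 with library size alone, 5 without a filter, 5 with the replicate block, 3 in each limma fit and 3 to 7 with 1 library left out. The 5 that fell were 3 with DESeq2 size factors, without a filter or with the trend removed, and 2 to 4 with 1 library left out. Of the MRPL symbols, 9 rose, and 4 with library size alone, 5 with TMM on protein-coding genes, without a filter or with limma on log2(FPKM + 1) or log2(FPKM + 0.1), 3 with limma without a filter and 5 to 11 with 1 library left out. The 0 that fell by edgeR were 1 with library size alone and in each limma fit. The cause of these moves was not tested. FPKM here scale with library size, so the limma fits also drop TMM. The labels do not say whether replicate numbers pair the libraries. Libraries of the same number correlated in their deviations from the group means at -0.0072, 0.0035 and 0.027, and not every library correlated best with its own number. These values showed no pairing, but with 3 libraries a group they cannot exclude one.

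Signs turned only in uncalled members. MRPS21 went from -0.01 to 0.00593 with DESeq2 size factors and ranged from -0.0582 to 0.0482 with 1 library left out. MRPL37 turned to -0.0691 with library size alone, -0.0676, -0.0696 and -0.0676 in the limma fits, and ranged from -0.0259 to 0.188. MRPL46 turned to -0.0663 with library size alone, -0.0327, -0.06 and -0.0327 in the limma fits and -0.151 with readthrough counts added, and ranged from -0.0249 to 0.184. MRPS18A turned to -0.0271 with library size alone, -0.0291, -0.0322 and -0.0291 in the limma fits and -0.00241 with the trend removed. MRPL44 turned to -0.00428, -0.00875 and -0.00428 in the limma fits, and MRPS30 to 0.19 with the trend removed. With 1 library left out, MRPL35 ranged from -0.144 to 0.592, MRPL30 from -0.456 to 0.885, MRPS30 from -0.142 to 0.0272 and MRPL1 from -0.0292 to 0.505.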
